A study of Prunus persica with 25 samples.

Results

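In the peach vegetative buds of year B, a small set of transcripts was abundant at the end of summer and at most at one eighth of that level once chilling had begun. Some of them did not stay low in year A. These 35 genes of the 26873 counted are described here in every bud library. They were selected on measured values, by a rule on the vegetative buds of year B. The mean at Pre0CU had to reach 20 CPM (the count of a gene divided by the total of its library, scaled to 1000000 counts), and the means at 200CU, 475CU and 930CU each had to be at most one eighth of it. PRUPE_4G150100 met the rule and was left out. Of the 10485 genes with at least 20 CPM at Pre0CU, the members made up 0.334%. Their levels in these collections are therefore a description with no test. The vegetative buds of year A and the flower buds of year B were not used by the rule, and comparisons within them were tested.

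The buds came from field-grown trees of the cultivar Fantasia, where axillary groups hold a central vegetative bud between flower buds. Buds of several trees formed each biological replicate. Chilling units (CU) sum the hours of effective cold by the Utah model, and Pre0CU is the last collection before the first unit was gained. Vegetative buds were collected at 0CU, 475CU and 770CU in year A and at Pre0CU, 200CU, 475CU and 930CU in year B, with 3 libraries each, and flower buds at Pre0CU and 930CU in year B, with 2 libraries each. The collection at 930CU is labelled as the one after 770CU. All trees were of 1 genotype and received no treatment other than the season, so the collections differ in date, day length and temperature as well as in chilling, and these cannot be told apart. Pre0CU fell in early September, 0CU of year A at the end of October and 200CU of year B in early November.

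Buds of temperate fruit trees are formed in summer, stop visible growth in autumn and need a period of cold before they can open. Inside the scales a vegetative bud holds a shoot apex with young leaves, and a flower bud holds floral organs that go on differentiating through winter. Phloem connections to the bud, growth of young leaves and the production of defence proteins are all known to change with the season in woody plants.

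Descriptions were read from a single supplementary list of the study, with 1627 genes. It gives a description for 5 of the members, and the other 30 are named here by identifier only. Where a gene is said to have no description, none was found in that list. PRUPE_1G028800 is described as a SIEVE ELEMENT OCCLUSION protein, a family that forms the phloem protein filaments of sieve tubes. PRUPE_1G327500, PRUPE_1G328000 and PRUPE_1G329000 are described as MLP-like proteins, relatives of the major latex proteins, which belong with the pathogenesis-related and birch pollen allergen family. PRUPE_1G043300 is described as a cell number regulator, from a family of cysteine-rich membrane proteins first named in maize for an effect on organ size. None of the 24 abscisic acid, 14 gibberellin, 28 jasmonate or 23 meristem genes that the study lists was a member. For abscisic acid this follows from the gene left out, since PRUPE_4G150100, which met the rule, is on that list as NCED3. None of the 5 descriptions matched the lists of word patterns (transcription factors, cell wall, hormones and others).

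Library totals ran from 39615840 to 71239880 counts. In year A, 96.0% or more of the counts above 0 in each library were even numbers, and 4076 to 4756 genes were at 0 per library, against 11 to 38 in the other tables. Levels of year A and year B are therefore set side by side without a test. The 930CU and all flower bud libraries are labelled polyA RNA, and the other vegetative libraries total RNA. Within year B the drop to 200CU and 475CU lay between libraries of the same label. In vegetative buds the step from 475CU to 930CU changed the label, so season and RNA type cannot be told apart in it. The flower meristem gene LFY was at 32.4 and 30.7 CPM in replicates 1 and 2 of 475CU in year B and at 4.01 CPM in replicate 3. Flower buds had 53.1 to 87.8 CPM of LFY. Of the other flower meristem markers, AGL79 was at 15.7, 14.0 and 6.12 CPM in these 475CU replicates. AGL20B went the other way, with 1.65, 1.41 and 2.13 CPM. LFY also varied at 200CU, with 3.70, 7.34 and 14.95 CPM. With replicate 3 as the only 475CU library the rule chose 41 genes, with all 35 members among them. The 3 shoot meristem markers (STM, KNAT1 and a CLAVATA3/ESR gene) summed to 213 to 236 CPM at Pre0CU and 54.1 to 59.0 CPM at 200CU in the vegetative buds of year B, with none at 0. At 475CU they summed to 80.7 to 96.9 CPM, and by 930CU to 101 to 114 CPM. In flower buds their sum was 161 to 190.5 CPM at Pre0CU and 88.2 to 97.2 CPM at 930CU. In year A it was 261 to 347 CPM over the 9 libraries. The part of such differences between buds in the results below was not tested. In bulk buds, fewer cells of a type and less RNA per cell cannot be told apart.

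Together the 35 genes took 7536 ± 76.6 CPM of the vegetative bud libraries at Pre0CU (mean ± SD, n = 3). Their sum was 629 ± 101 CPM at 200CU, 358 ± 25.7 CPM at 475CU, and by 930CU it was 194 ± 2.3 CPM. The members spanned 20.3 to 1970 CPM at Pre0CU with a median of 82.8 CPM, and the median was 4.29 CPM at 200CU, 3.12 CPM at 475CU and 2.46 CPM at 930CU. The rule required each member to be low by 200CU, so the early loss was set in advance. From there 14 members went on to a lower mean at each later step. The lowest of the later means was at 930CU for 22 members, at 475CU for 7 and at 200CU for 6, and 9 members were higher at 930CU than at 200CU. The labelled RNA type also changed at 930CU, so these differences from 930CU cannot be put down to the season alone.

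**Figure D1:**
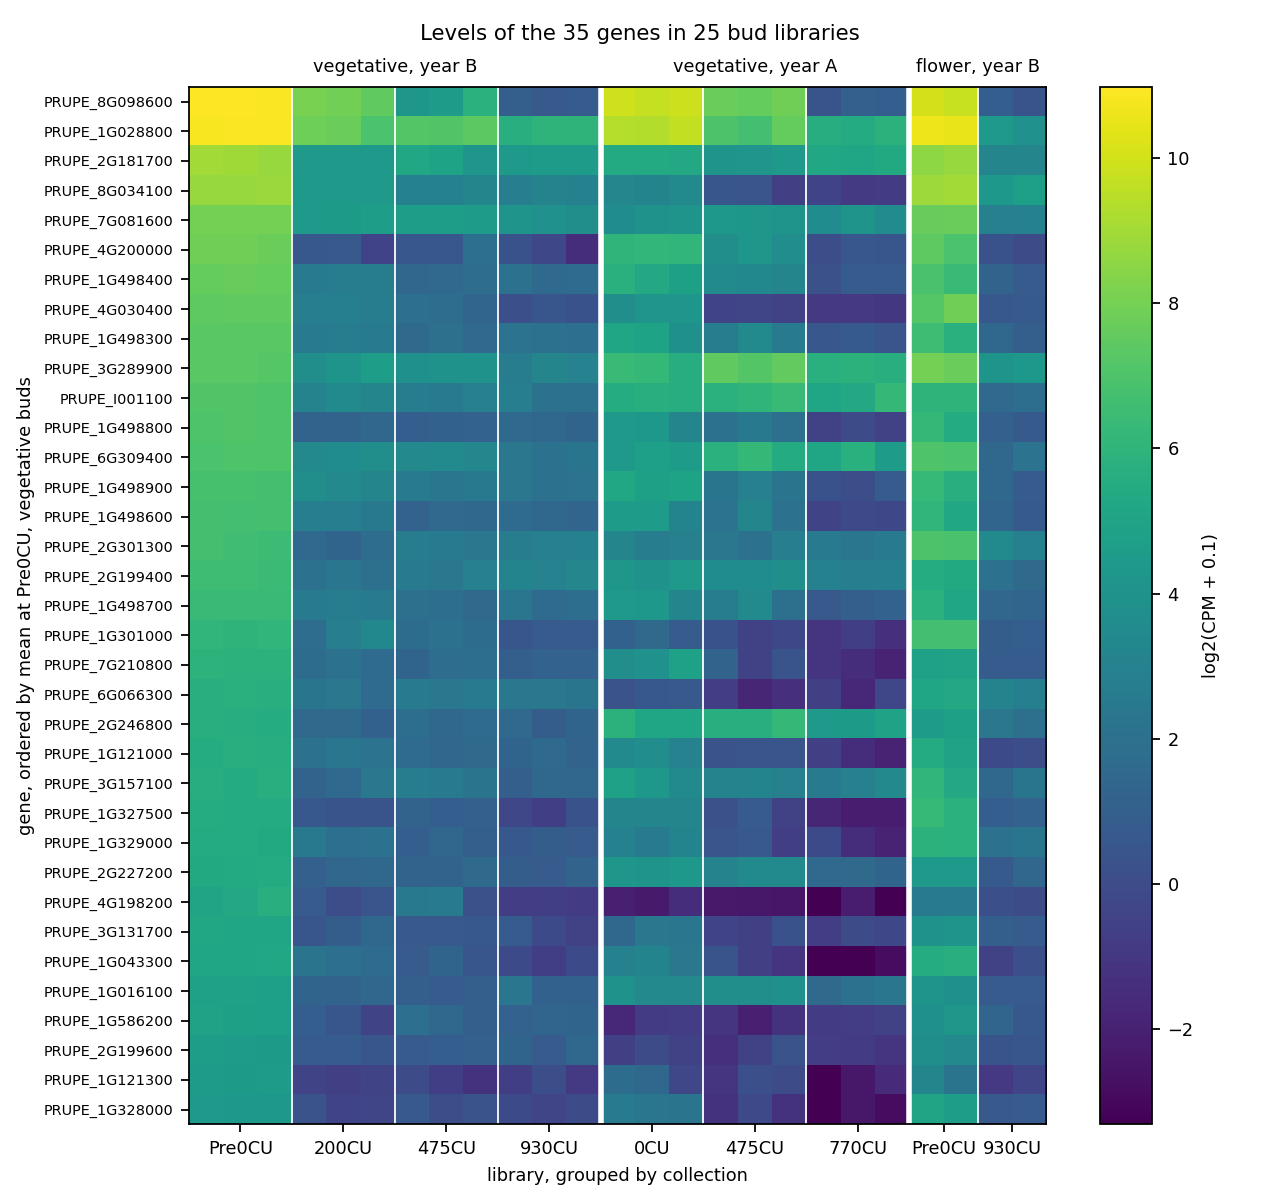
Level of each of the 35 genes (rows, ordered by their vegetative Pre0CU mean) in each of the 25 libraries (columns, grouped by collection), as log2(CPM + 0.1) in colour. The 3 columns of vegetative Pre0CU and the 2 of flower Pre0CU are the brightest blocks of year B. The median member level at 0CU of year A (16.6 CPM) lies between the Pre0CU and the later medians. Single members differ, as PRUPE_6G066300 had 1.35 CPM at 0CU of year A and 4.24 CPM at 200CU of year B.

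A pair of genes supplied 51.1% of the summed level at Pre0CU. PRUPE_8G098600, which has no description, was at 2032, 1957 and 1922 CPM in the vegetative buds at Pre0CU. It had 279.6, 249.6 and 179 CPM at 200CU, and 19.2, 23.1 and 55.2 CPM at 475CU. At 930CU it had 1.95, 1.48 and 1.71 CPM, so that it passed from the most abundant member to one of the low ones in steps that did not overlap. PRUPE_1G028800, the sieve element occlusion gene, was at 1835, 1916 and 1898 CPM at Pre0CU. Its values were 228, 215 and 123 CPM at 200CU, and 140.4, 138 and 169 CPM at 475CU. At 930CU it had 51.1, 63.3 and 62.6 CPM. Its 200CU and 475CU libraries overlapped, and at 930CU it was still the most abundant member.

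Other members were low from 200CU onward. PRUPE_4G200000 had 238, 233 and 216 CPM at Pre0CU and 1.46, 1.47 and 0.634 CPM at 200CU. Its later means were 2.15 ± 1.34 CPM at 475CU and, at 930CU, 0.714 ± 0.430 CPM (SD, n = 3), and its Pre0CU mean was 107 times the highest of them, the widest gap among the members. The next widest gaps were those of PRUPE_1G498800 (49.8 times), PRUPE_1G121300 (34.3 times), PRUPE_1G498400 (31.2 times) and PRUPE_1G498300 (26.4 times).

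Another course was a drop to a plateau. PRUPE_2G181700 had 509, 493 and 445 CPM at Pre0CU, 20.9 ± 0.317 CPM at 200CU, 29.1 ± 9.50 CPM at 475CU and 22.7 ± 1.29 CPM at 930CU. PRUPE_7G081600 had 256, 257 and 260.4 CPM at Pre0CU, and then 22.8 ± 2.08, 24.6 ± 0.584 and 14.9 ± 1.62 CPM. PRUPE_8G034100 had 437, 443 and 453 CPM at Pre0CU, and then 21.0 ± 0.424, 8.21 ± 0.936 and 7.70 ± 0.724 CPM (all mean ± SD, n = 3). Each of the later values lay far below the Pre0CU libraries and above the base level given next.

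How low the later values were can be read against genes with no counts elsewhere. The 2263 genes at 0 in all 9 libraries of year A had a median of 0.793 to 0.823 CPM in the vegetative collections of year B, with a 95th percentile of 2.38 to 2.41 CPM. At that percentile or below it lay 9 members at 200CU, 10 at 475CU and 17 at 930CU. These members could not be told from such genes by their later levels. The source of the base level was not tested.

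The members nearest to the one-eighth limit were PRUPE_8G098600, with a Pre0CU mean 8.35 times its highest later mean, PRUPE_3G157100 (8.43 times), PRUPE_3G289900 (8.48 times), PRUPE_1G016100 (9.51 times) and PRUPE_1G043300 (9.57 times). Just outside it were PRUPE_3G057000 (8.00 times, below the limit before rounding), PRUPE_8G000400 (7.94 times), PRUPE_1G272400 (7.88 times), PRUPE_2G289600 (7.83 times) and PRUPE_1G407300 (7.77 times). At the limit on the level, PRUPE_1G328000 was inside with 20.3 CPM and PRUPE_7G197900 outside with 17.5 CPM. The mirrored rule, for genes with every later mean at 20 CPM or more and at least 8 times the Pre0CU mean, found 18 genes.

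By their identifiers the members lay on most of the peach pseudomolecules. Pseudomolecule 1 held 16 of them, which is 45.7% of the members and compares with 21.9% of all genes. Pseudomolecule 2 held 6, pseudomolecules 3 and 4 held 3 each, 6, 7 and 8 held 2 each, pseudomolecule 5 held none, and 1 was on an unplaced scaffold. Of the 16, 6 lay in a single run of gene models, PRUPE_1G498300, PRUPE_1G498400, PRUPE_1G498600, PRUPE_1G498700, PRUPE_1G498800 and PRUPE_1G498900. The only gene model between them in the tables that was not a member, PRUPE_1G498500, was at 4.02 CPM at Pre0CU and 1.33 to 1.64 CPM later.

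The run of 6 behaved much alike. Its summed level was 785.7 to 798 CPM over the Pre0CU libraries, 35.3 to 40.3 CPM at 200CU, 19.0 to 20.0 CPM at 475CU and 19.4 to 24.0 CPM at 930CU. PRUPE_1G498400 was the highest of them at Pre0CU, with 25.1% of their sum, and PRUPE_1G498700 the lowest with 10.4%. At 930CU the shares were 16.1% and 18.1%, so their order had changed as the levels fell. In year A the sum was 152 ± 46.2 CPM at 0CU, 41.2 ± 12.3 CPM at 475CU and, in its lowest collection, 7.42 ± 0.945 CPM at 770CU (SD, n = 3). The collections did not overlap. In flower buds it was 305 and 484 CPM at Pre0CU and 10.8 and 14.5 CPM at 930CU. All 6 were called lower in each comparison of year A and in flower buds by the tests below. For PRUPE_1G498700 the call from 0CU to 475CU (-1.11 ± 0.38 in log2 units, adjusted p = 0.0419 by edgeR) was lost when any of 6 libraries was left out (replicates 1 and 2 of 0CU, 1 and 3 of 475CU, 1 and 2 of 770CU), with adjusted p-values of 0.0535 to 0.122, and with DESeq2 (-1.13, adjusted p = 0.0524).

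**Figure D2:**
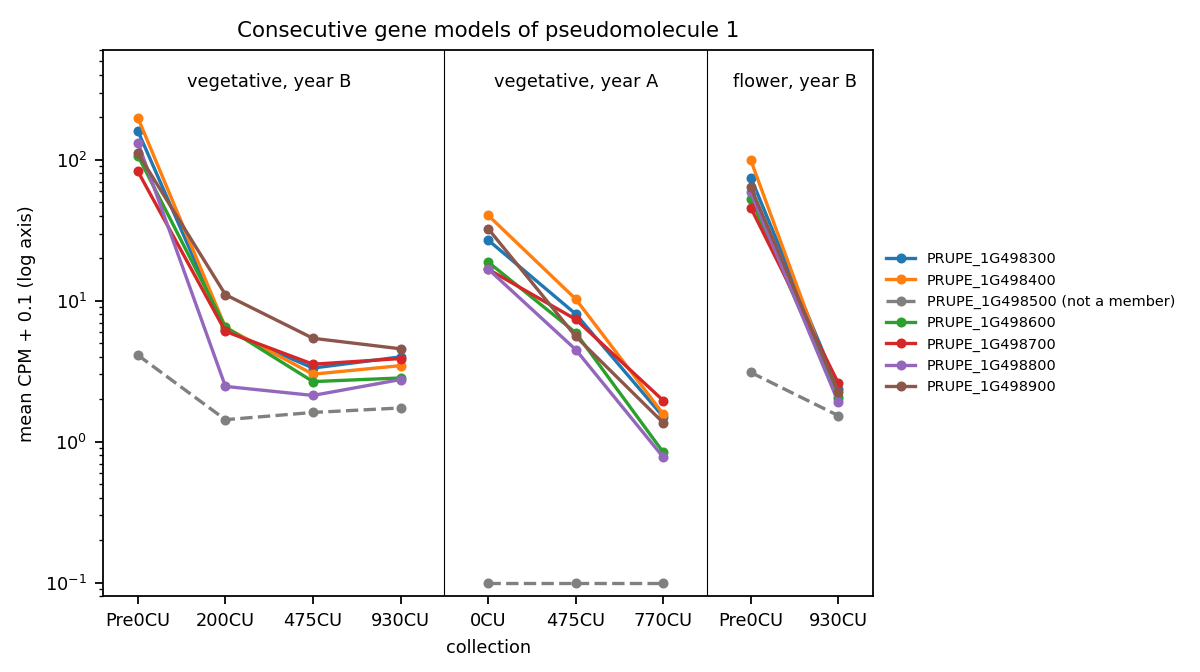
Mean level (CPM + 0.1, log axis) of the 6 neighbouring members and of the gene model between them that is not a member, by collection, with lines joined only within a table. The 6 lines fall together in each table, and in year A the dashed gene is at 0 in all 3 collections.

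Smaller groups of neighbours were PRUPE_1G121000 with PRUPE_1G121300, PRUPE_2G199400 with PRUPE_2G199600, and the MLP-like genes PRUPE_1G327500 and PRUPE_1G328000. Of the last pair, PRUPE_1G327500 was at 47.3, 44.4 and 44.2 CPM at Pre0CU, 1.29 ± 0.132 CPM at 200CU and 0.788 ± 0.298 CPM at 930CU. PRUPE_1G328000 was at 21.1, 20.0 and 19.7 CPM at Pre0CU and at 0.832 ± 0.305 and 0.795 ± 0.0915 CPM. The MLP-like gene PRUPE_1G329000 had 45.2, 44.3 and 41.7 CPM at Pre0CU and held a somewhat higher 4.34 ± 0.912 CPM at 200CU, before 1.62 ± 0.171 CPM at 930CU (SD, n = 3). All 3 were low by the first chilled collection, as the rule required. Between the first pair of MLP-like genes lay 4 gene models that were not members, at 0.952 to 6.52 CPM at Pre0CU. Whether reads were shared between similar neighbours was not tested, since no sequences were used here.

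The members also fell in flower buds, which the rule did not use. All 35 passed the filter on low counts and lay above its level in all 4 flower bud libraries, and all 35 were called lower at 930CU than at Pre0CU (edgeR quasi-likelihood test with Benjamini-Hochberg adjustment, where a call needed an FDR below 0.05 and more than a 1.4-fold difference). Of the 26657 genes tested, 21.8% were called lower and 21.4% higher. Without TMM scaling the median of all genes moved by 0.14 on the log2 scale and 40.2% rather than 50.5% of the calls were in the lower direction, with all 35 members still among them. The members' median log2 fold change was -4.46, with a range of -9.45 to -2.44, beside a median of 0.00 for all genes. An 8-fold or larger fall was fitted for 32 members and for 1.51% of all genes. At 930CU in flower buds the base level, taken from the genes at 0 in year A, had a 95th percentile of 2.61 CPM. At or below it lay 22 members, which could not be told from such genes by their 930CU levels. In each of the 35 genes both Pre0CU libraries were above both 930CU libraries. This separation was not counted over all genes, so it is a description only.

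The 5 largest falls in flower buds began with that of PRUPE_8G098600. It was at 1057 and 882 CPM at Pre0CU and at 1.83 and 1.20 CPM at 930CU, a change of -9.45 ± 0.19 in log2 units (± standard error, adjusted p = 1.33e-07). PRUPE_4G200000 was at 175 and 122 CPM and then at 1.13 and 0.870 CPM (log2 fold change -7.35 ± 0.23, adjusted p = 3.94e-07). For PRUPE_4G030400, which has no description, the values were 146 and 234 CPM and then 1.41 and 1.55 CPM (-7.15 ± 0.26, adjusted p = 6.86e-07). The sieve element occlusion gene PRUPE_1G028800 had 1575 and 1481 CPM at Pre0CU. It had 20.9 and 14.8 CPM at 930CU (-6.56 ± 0.17, adjusted p = 1.92e-07), where the vegetative buds had kept 59.0 ± 6.82 CPM. The cell number regulator PRUPE_1G043300 went from 46.7 and 49.7 CPM to 0.573 and 1.03 CPM (-6.08 ± 0.19, adjusted p = 3.69e-07). In each of these 5 genes the flower bud libraries of the collections were separated by a gap much wider than the difference between replicates. All but PRUPE_1G028800 had 930CU means below 2.61 CPM, the 95th percentile of the base level.

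The 5 smallest falls in flower buds began with that of PRUPE_6G066300. It was at 35.6 and 40.4 CPM at Pre0CU and at 8.35 and 7.06 CPM at 930CU, which is -2.44 ± 0.11 in log2 units (adjusted p = 1.46e-06). PRUPE_2G246800 was at 24.4 and 28.1 CPM and then at 4.93 and 3.73 CPM (-2.74 ± 0.14, adjusted p = 3.36e-06). PRUPE_4G198200 was at 5.59 and 6.04 CPM and then at 1.05 and 0.851 CPM (-2.75 ± 0.20, adjusted p = 1.66e-05). PRUPE_1G586200 and PRUPE_3G131700 followed, with -3.20 ± 0.24 and -3.32 ± 0.14 (adjusted p = 1.92e-05 and 1.08e-06). These 5 were still called lower, and the first 3 were the members whose fitted fall was under 8-fold. PRUPE_4G198200, PRUPE_1G586200 and PRUPE_3G131700 had 930CU means below 2.61 CPM, the 95th percentile of the base level.

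At Pre0CU all members were detected in both bud types, with 10 at a higher mean in flower buds and 25 at a higher mean in vegetative buds. The summed level in flower buds was 5525 ± 308 CPM at Pre0CU and dropped to 151 ± 1.02 CPM at 930CU (SD, n = 2). Above the vegetative level were PRUPE_1G301000, at 103 and 106 CPM against 66.2 ± 2.73 CPM, and PRUPE_3G289900, at 260.4 and 211 CPM against 156 ± 4.37 CPM. All 3 MLP-like genes were also higher in flower buds, with 67.1 ± 14.1 CPM for PRUPE_1G327500, 29.7 ± 5.12 CPM for PRUPE_1G328000 and 57.7 ± 1.79 CPM for PRUPE_1G329000 (SD, n = 2). The farthest below was PRUPE_4G198200, at 5.81 ± 0.318 CPM against a vegetative mean of 41.8 ± 9.86 CPM. Since the vegetative libraries chose the members, and differ in the labelled RNA type from the flower libraries at Pre0CU, these differences were not tested.

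**Figure D3:**
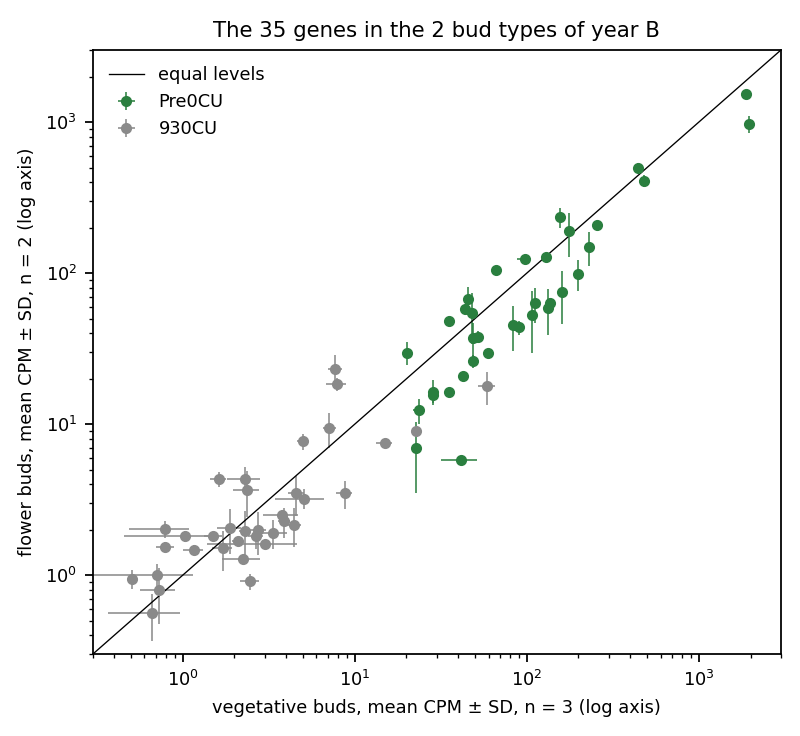
Mean level of each member in vegetative (x axis, n = 3) and flower buds (y axis, n = 2) of year B, in CPM on log axes with SD bars, at Pre0CU (green) and 930CU (grey), with a line of equal levels. At Pre0CU 25 of the 35 points lie below the line, and at 930CU the members sit at low levels in both bud types, with a highest vegetative mean of 59.0 CPM and a highest flower bud mean of 23.3 CPM.

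In year A the earliest collection was 0CU, later in the season than Pre0CU, and the members were lower there than in the Pre0CU buds of year B. Date and year both differ between these collections and cannot be told apart. The median member stood at 20.1% of its year B Pre0CU level, with a range of 0.403% to 88.1%. At 0CU 12 members were at one eighth or less of that level, and 1 was above 50%, PRUPE_2G246800. These counts across the years were not made over all genes, and genes at 0 in year A had a base level in year B. Their summed level was 2278 ± 113 CPM at 0CU, 870 ± 89.97 CPM at 475CU and finally 311 ± 27.0 CPM at 770CU (mean ± SD of 3 libraries). PRUPE_8G098600 and PRUPE_1G028800 made up most of the first of these sums, with 938 ± 79.1 and 708 ± 81.9 CPM. The remaining 33 members had 632 ± 72.6, 510 ± 23.5 and 259 ± 22.7 CPM.

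By edgeR's quasi-likelihood test, 34 of the 35 members could be tested in year A. From 0CU to 475CU 23 were called lower and 2 higher, where 13.9% of the 20950 genes tested were called lower and 10.8% higher. Without TMM scaling, which moved the median of all genes by -0.10 on the log2 scale, 69.6% rather than 56.4% of all calls were in the lower direction, and 24 members were called lower. From 0CU to 770CU 26 were called lower and 1 higher, against 20.9% and 15.5% of all genes. From 475CU to 770CU 22 were called lower and 1 higher, against 8.21% and 3.95% of all genes. With the replicate numbers of 475CU and 770CU as a block, 22 members were again called lower, without PRUPE_1G121300 (-2.77, adjusted p = 0.0732) and with PRUPE_6G309400 (-0.69, adjusted p = 0.00848). The members' median log2 fold changes were -1.64, -3.41 and -1.60 in this order, beside medians of -0.01, 0.02 and 0.01 for all genes.

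Not every member that was tested was counted well in each collection. In 25 of them all 9 libraries lay above the level of the count filter (0.194 CPM), and the others passed through the collections where they were high. Of these 25, 16 were called lower and 2 higher from 0CU to 475CU. At 770CU, 18 were called lower and 1 higher against 0CU, with 16 and 1 against 475CU. A fit limited to genes with at least 10 counts in every library held 25 members. From 0CU to 475CU it called 16 members and 14.3% of its genes lower, and from 0CU to 770CU 18 members and 20.7%. From 475CU to 770CU it called 17 members and 8.42% of its genes lower. The member that could not be tested, PRUPE_4G198200, was at 0.139, 0.101 and 0.266 CPM at 0CU, where the vegetative buds of year B had held 32.9, 40.2 and 52.4 CPM at Pre0CU. It was the member with the lowest share of its Pre0CU level at 0CU of year A, 0.403%.

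In 17 of the 34 tested members a fall was called in all 3 comparisons of year A, where 3.55% of all genes tested were. Among the 17, PRUPE_1G043300, PRUPE_1G121000, PRUPE_1G327500, PRUPE_1G328000 and PRUPE_7G210800 had 770CU libraries below the level of the count filter. They passed the filter through the collections where they were high. Beside PRUPE_1G498700, 2 of the 17 had a call from 475CU to 770CU that some settings ended. For PRUPE_4G030400 (-0.66, adjusted p = 0.0312) it was lost with DESeq2 (adjusted p = 0.0623), without TMM scaling, with halved counts, and when replicate 1 or 2 of 475CU or any 770CU library was left out, with adjusted p-values of 0.052 to 0.114. For PRUPE_8G034100 (-1.05, adjusted p = 0.0324) it was lost when replicate 1 or 2 of 475CU or any 770CU library was left out, with adjusted p-values of 0.0557 to 0.129. The largest fall from 0CU to 770CU was that of PRUPE_8G098600. It was at 1005, 851 and 958 CPM at 0CU, at 221, 192 and 240.2 CPM at 475CU, and at 1.21, 2.02 and 1.87 CPM at 770CU. Its log2 fold change from 0CU was -2.0 ± 0.16 at 475CU (adjusted p = 1.51e-05) and -9.02 ± 0.22 at 770CU (adjusted p = 8.33e-09). The sieve element occlusion gene PRUPE_1G028800 was at 666, 655 and 802 CPM at 0CU, at 126, 106 and 196 CPM at 475CU, and at 48.6, 44.4 and 58.4 CPM at 770CU. Its fall from 0CU to 770CU was -3.73 ± 0.23 on the log2 scale (adjusted p = 1.28e-06). For both genes the 3 collections did not overlap.

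The cell number regulator PRUPE_1G043300 had 446, 338 and 268 counts at 0CU and 0, 0 and 2 counts at 770CU. With so few counts the fitted change depends on the fit's prior. The ratio of the pooled levels was 593, with an exact 95% interval of 106 to 23453 that covers counting error only. All counts of this gene at 0CU and 770CU were even, so they were halved for the interval. PRUPE_1G328000, PRUPE_7G210800, PRUPE_1G327500 and PRUPE_1G329000 were also called lower from 0CU to 770CU, but each had a 770CU library below the level of the count filter, so the size of their fitted change depends on the prior as well. The MLP-like gene PRUPE_1G328000 was at 5.65, 4.75 and 4.53 CPM at 0CU and at 0, 0.0878 and 0.0407 CPM at 770CU, and PRUPE_1G327500 at 9.29, 9.29 and 8.98 CPM and then 0.194, 0.117 and 0.122 CPM. The 770CU libraries of PRUPE_7G210800 were at 0.350, 0.263 and 0.163 CPM, and those of PRUPE_1G329000 at 0.817, 0.263 and 0.163 CPM. PRUPE_4G200000, which in year B had been lost by 200CU, was at 65.5, 72.4 and 68.5 CPM at 0CU and at 13.5, 19.2 and 13.0 CPM at 475CU of year A. It reached 0.972, 1.38 and 1.34 CPM only at 770CU, with a log2 fold change of -2.07 ± 0.15 at 475CU (adjusted p = 1.16e-05) and of -5.71 ± 0.19 at 770CU (adjusted p = 3.02e-08).

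Some members did not stay low in year A. PRUPE_3G289900, which has no description, was at 78.6, 75.2 and 48.0 CPM at 0CU, rose to 177, 143 and 189 CPM at 475CU and fell to 53.2, 57.7 and 51.6 CPM at 770CU. The rise was 1.43 ± 0.19 on the log2 scale (adjusted p = 2.78e-04) and the later fall -1.67 ± 0.19 (adjusted p = 4.48e-04). Its 475CU level in year A was thus as high as its Pre0CU level in year B, where 475CU buds had 14.3, 15.4 and 15.7 CPM. PRUPE_6G309400 was at 20.5, 27.3 and 22.6 CPM at 0CU and at 56.3, 74.1 and 44.4 CPM at 475CU (1.41 ± 0.27, adjusted p = 0.00227). At 770CU it was at 34.5, 54.5 and 23.8 CPM, which overlapped with 475CU, and it was still called higher than at 0CU (0.76 ± 0.26, adjusted p = 0.0322). That last call was lost when 0CU replicate 1 (0.70, adjusted p = 0.0819), 0CU replicate 3 (0.71, adjusted p = 0.0851) or 770CU replicate 2 (0.39, adjusted p = 0.152) was left out, and without TMM scaling (0.68, adjusted p = 0.0567).

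PRUPE_2G181700 fell from 43.7, 42.5 and 40.2 CPM at 0CU to 16.6, 17.8 and 21.6 CPM at 475CU (-1.07 ± 0.13, adjusted p = 1.49e-04). It was back at 38.5, 34.5 and 41.4 CPM at 770CU, a rise of 1.00 ± 0.13 (adjusted p = 7.76e-04) and the only one called from 475CU to 770CU among the members. PRUPE_2G246800 was at 59.5, 35.6 and 34.2 CPM at 0CU and at 52.2, 49.4 and 74.4 CPM at 475CU, which overlap (0.54 ± 0.26, adjusted p = 0.119). It was at 20.7, 22.5 and 29.9 CPM at 770CU, a fall of 1.30 from 475CU (log2 fold change -1.30 ± 0.26, adjusted p = 0.00784). In year B the same gene had 2.11 to 3.46 CPM at 200CU and 475CU.

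In 5 of the tested members no comparison of year A was called. PRUPE_I001100, on the unplaced scaffold, was at 45.7, 49.8 and 49.1 CPM at 0CU, 56.7, 66.1 and 81.0 CPM at 475CU and 35.9, 40.4 and 73.2 CPM at 770CU, and its change from 0CU to 770CU was 0.14 in log2 units (95% interval -0.35 to 0.62, adjusted p = 0.668). PRUPE_7G081600 was at 12.3, 15.4 and 16.9 CPM at 0CU and 12.4, 16.7 and 11.8 CPM at 770CU, which is -0.04 in log2 units (95% interval -0.32 to 0.24, adjusted p = 0.832). It was thus close to its year B plateau at each collection of year A. PRUPE_2G301300, PRUPE_2G199600 and PRUPE_1G586200 were the others, and at 0CU they stood at 7.71%, 2.86% and 1.35% of their Pre0CU level. The highest 5 values from 0CU to 770CU, by edgeR, were the log2 fold changes of PRUPE_6G309400 (0.76), PRUPE_1G586200 (0.55), PRUPE_I001100 (0.14), PRUPE_7G081600 (-0.04) and PRUPE_2G181700 (-0.07).

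**Figure D4:**
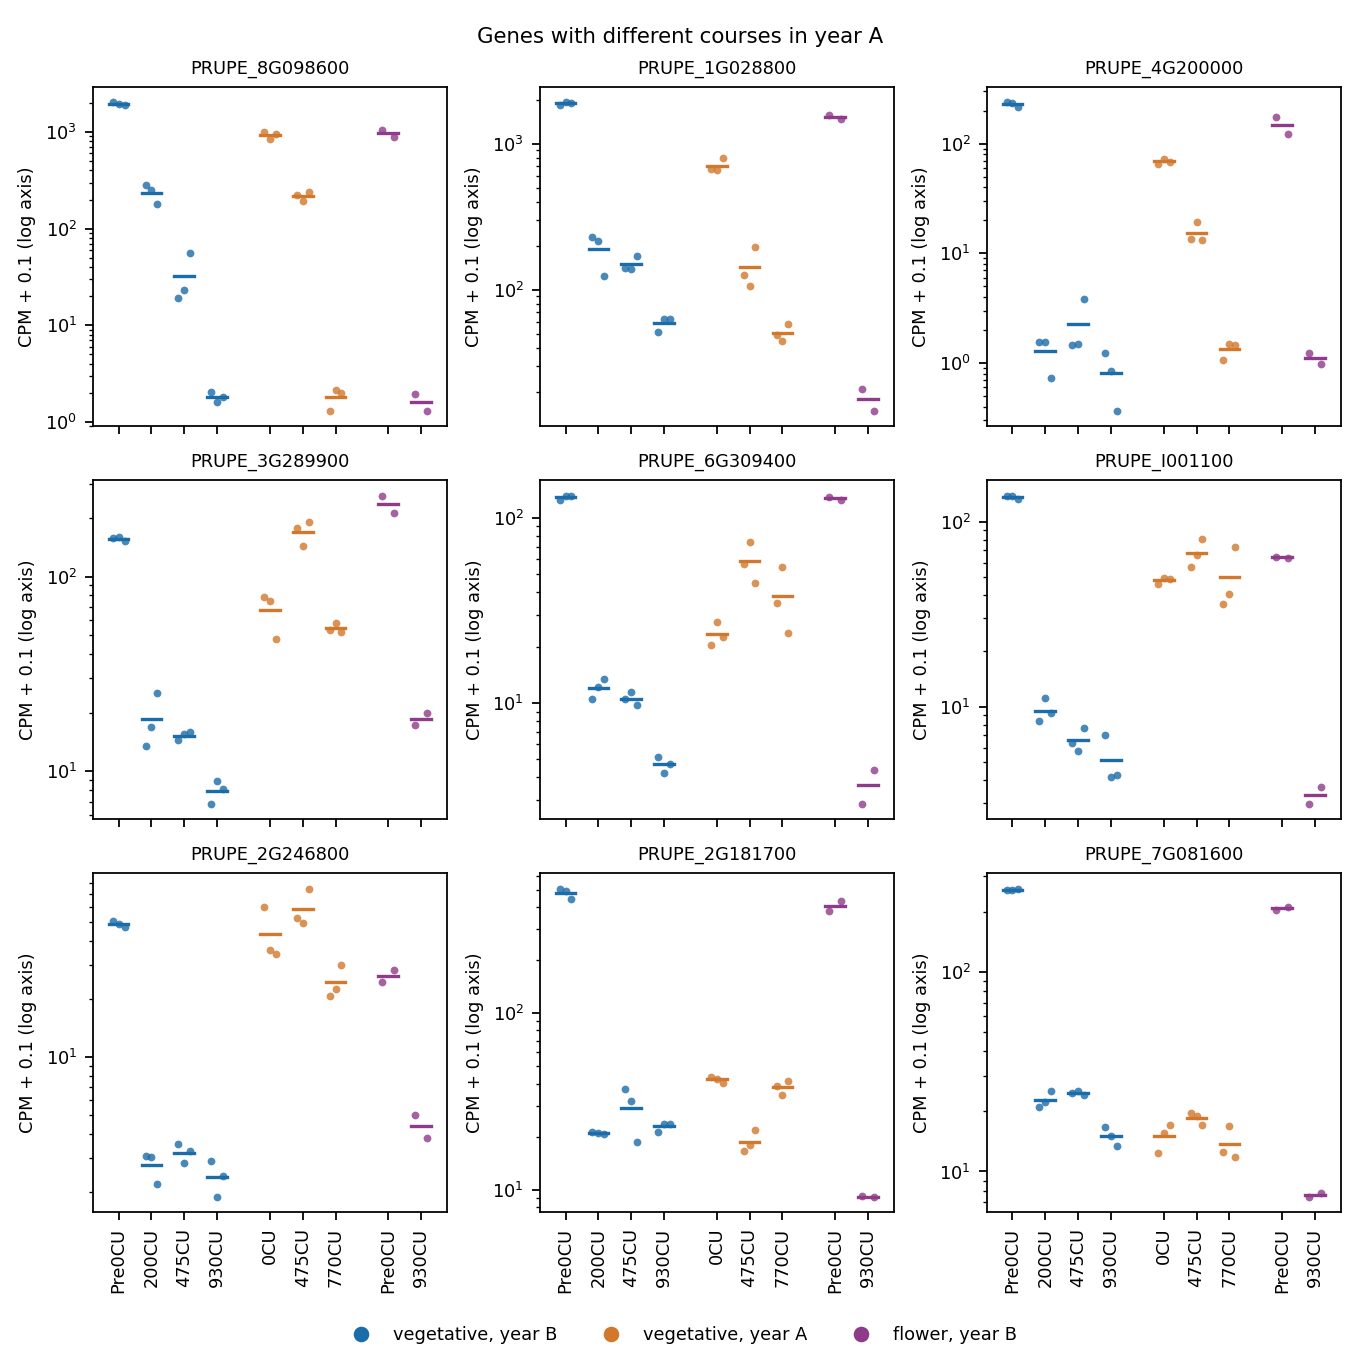
Level of 9 members in each library (points) with the mean of each collection (bars), as CPM + 0.1 on log axes that differ between panels, for vegetative buds of year B (blue), vegetative buds of year A (orange) and flower buds of year B (purple). The upper row shows genes that fell through both years. In the other rows, PRUPE_2G181700 apart, the orange points stay level or rise at 475CU while the blue points stay low. The orange points of PRUPE_2G181700 fall at 475CU and its blue points stay low.

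The 475CU collection was made in both years, so the members could be read side by side at equal chilling. Of the 35, 17 had a higher mean in year A and 7 of these were more than 5-fold higher, while 4 members were more than 5-fold lower in year A. These counts were not made over all genes, and genes at 0 in year A had a base level in year B. PRUPE_2G246800 had the highest ratio of year A to year B, with 58.7 ± 13.7 CPM in year A beside 3.11 ± 0.368 CPM in year B. PRUPE_3G289900 had 169.7 ± 24.4 and 15.1 ± 0.741 CPM, and PRUPE_I001100 67.9 ± 12.2 and 6.49 ± 0.978 CPM. PRUPE_1G028800 stood at 143 ± 47.3 and 149 ± 17.1 CPM (SD, n = 3). Of these 4 genes, the first 3 had no overlap between the years and the last had overlapping libraries. PRUPE_4G198200 had the lowest ratio, with a mean of 0.0900 CPM in year A beside 4.07 ± 2.59 CPM in year B. Its year B libraries were uneven, at 5.44, 5.70 and 1.09 CPM. The next lowest ratio was that of PRUPE_6G066300, from 0.328 ± 0.170 CPM in year A against a year B mean of 5.41 ± 0.241 CPM.

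The study's lists of hormone and meristem genes, which hold no member and were drawn up with these samples in view, give values to set beside these. In flower buds from Pre0CU to 930CU, 22 of the 28 jasmonate genes were called lower and 2 higher, 11 of 24 abscisic acid genes lower and 5 higher, 7 of 14 gibberellin genes lower and 6 higher, and 9 of 23 meristem genes lower and 6 higher. From 0CU to 770CU in year A, the calls were 20 lower and 3 higher among the jasmonate genes, 8 and 8 among the abscisic acid genes, 3 and 7 among the gibberellin genes, and 5 and 5 of 22 tested meristem genes. Of all genes tested, 21.8% were called lower and 21.4% higher in flower buds, and 20.9% and 15.5% from 0CU to 770CU in year A. The median log2 fold changes of the jasmonate genes were -1.68 in flower buds and -1.16 in year A, beside the members' medians of -4.46 and -3.41. The members were chosen for a large fall in year B and the listed genes were not, so the choice itself favoured this difference.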

How the data were processed

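RNA sequencing counts of 21 vegetative and 4 flower bud libraries were used. After fastp trimming and STAR mapping to the NCBI peach genome, the authors counted exon reads with bedtools 2.30.1, discarded duplicates and deposited raw counts per gene without normalization. Columns were matched to collections by name, as the labels letter the replicates and the columns number them. CPM was computed from column totals. Each table was tested separately with edgeR 4.0.16 in R 4.3.3 (filterByExpr with a minimum count of 10, TMM, quasi-likelihood test, Benjamini-Hochberg adjustment over all genes tested), and a gene was called where its FDR was below 0.05 and it differed by more than 1.4-fold. Standard errors were derived from the F statistics. The scripts were tested on simulated data. The rule, members, gene lists and tests were chosen with earlier results of these data known. Genes named were those with a description, the highest at Pre0CU, the extremes of each fall, those at the limits of the rule and neighbours. The smallest chi-square per gene between replicates was 2.88, so no library was a copy of another. Same-numbered libraries of 475CU and 770CU in year A deviated together (correlations of 0.13, 0.15 and 0.28), so a fit with the replicate number as a block is given beside that comparison. P-values measure the spread between the libraries of a collection. Promoter and protein sequences were not used here, and the planned motif search was not run.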

Additional observations from a re-analysis of the deposited data

How the results depend on the processing

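The number of genes chosen was 38 with TMM-scaled CPM, 27 at a 10-fold limit, 43 and 28 with minimums of 10 and 40 CPM, 36 with group medians and 33 to 39 when 1 library was left out, with 29 members chosen in all 12 of those. At a 6-fold limit 68 genes were chosen, in place of 35. The setting with replicate 3 as the only 475CU library was chosen after seeing the data. The replicate numbers did not pair 0CU with the later collections of year A (correlations of same-numbered deviations between -0.17 and 0.10) or the flower buds (-0.01). With the replicate block 35 members were called lower in flower buds, and 23, 26 and 22 in the comparisons of year A (475CU and 770CU against 0CU, and 770CU against 475CU). Besides the changes given for 475CU to 770CU, the block changed 1 call, that of PRUPE_I001100 from 0CU to 475CU, to higher (0.57, adjusted p = 0.0344). No count of members called lower moved by more than 1.5 times under DESeq2, other scalings, filters or thresholds, or with 1 library left out. The members called higher numbered 2 to 4 from 0CU to 475CU, with 4 in a fit of all 21 vegetative libraries. From 0CU to 770CU they numbered 0 to 1, and from 475CU to 770CU 0 to 1. Over 2057 alternative values of single members, 1978 kept direction and call, 39 lost a call, 25 gained one and 15 changed sign. No called member changed sign. With 1 library left out, the log2 fold changes that changed sign ranged from -0.54 to 0.54 (PRUPE_2G199600) from 0CU to 475CU, from -0.16 to 0.0050 (PRUPE_2G181700), -0.21 to 0.039 (PRUPE_7G081600) and -0.29 to 0.34 (PRUPE_I001100) from 0CU to 770CU, and from -1.04 to 0.022 (PRUPE_2G199600), -0.15 to 0.24 (PRUPE_2G301300), -0.34 to 0.24 (PRUPE_3G131700) and -0.31 to 0.12 (PRUPE_3G157100) from 475CU to 770CU, and the cause was not tested. With 2 flower bud libraries per collection, leaving out 1 assumes that the lone library varies like the other collection.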
